A study of Mus musculus with 7 samples.

Results

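The NR4A and EGR activation factors examined here are 10 genes that T cells switch on after antigen receptor signalling, chosen by symbol from the 19589 genes of the table. They are the nuclear receptors Nr4a1, Nr4a2 and Nr4a3, the zinc finger factors Egr1, Egr2 and Egr3, the surface protein gene Cd69, the transcription factor gene Myc, and the phosphatase genes Dusp2 and Dusp5. All 10 were in the table. CD4+ splenocytes of strain C57BL/6, isolated by flow sorting, gave the RNA of 7 sequencing libraries. The 4 libraries WT1 to WT4 came from wild-type mice, and the 3 libraries RT1 to RT3 from mice described in the series as Tet2-/- with G17V RHOA. Tet2 encodes an enzyme that oxidises methylated cytosine in DNA, and G17V RHOA is a mutant small GTPase known from angioimmunoblastic T cell lymphoma. The labels used here state no age, no treatment, no deleted part of Tet2 and no promoter for the mutant RHOA.

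In a T cell, engagement of the antigen receptor raises calcium and activates the RAS and ERK kinases within minutes. Calcineurin and NFAT, on the calcium side, and the serum response factor with its ERK-regulated partners then start the immediate early genes. NR4A receptors act as transcription factors without a known hormone ligand and are known for restraining T cell responses. EGR1 is a general early response factor, while EGR2 and EGR3 are known for limiting activation and for a role in follicular helper T cells. CD69 binds the sphingosine 1-phosphate receptor S1PR1 and holds activated cells in lymphoid tissue. MYC drives the growth of activated cells, and DUSP2 and DUSP5 remove the activating phosphates from ERK in the nucleus.

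Levels are given in RPKM (reads per kilobase of gene and 1000000 reads of the library), and the libraries fell into 2 sets by depth. Totals read from the steps between low values were 18566233 to 21800352 reads in WT1, WT2 and RT1, called deep here, and 105763 to 121659 reads in WT3, WT4, RT2 and RT3, called shallow. For a gene of 2 kb, 1 read equals 0.0229 to 0.0269 RPKM in a deep library and 4.11 to 4.73 RPKM in a shallow one. Tet2 stood at 2.79 to 6.32 RPKM in WT and at 5.03, 0.803 and 0 RPKM across RT1 to RT3, with 4 reads or fewer in every shallow library, and Rhoa did not differ (limma adjusted p = 0.784). Whole-gene values do not show a deleted part or a mutant transcript, so neither gene checks the labels. The sorted cells carried CD4+ T cell RNA. Cd4 was at 122 to 463 RPKM and Cd3e at 66.5 to 185 RPKM in the 7 libraries. Cd8a, a marker of another T cell type, was at 0.645 to 4.52 RPKM in wild type and at 0 in every RT library. Behind the wild-type values were 128 and 47 reads in WT1 and WT2 and 1 and 2 reads in WT3 and WT4. By Xist and the Y-linked genes, WT3, WT4 and RT3 came from males and the other 4 from females, so every shallow wild-type mouse was male.

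Libraries WT3 and WT4 stood apart from the other 5 in RNA of other cell types. The 10 B cell markers summed to 1688 and 1877 RPM (recovered reads scaled to 1000000 per library) in WT3 and WT4, against 156 to 420 RPM in the other libraries. The 6 plasma cell markers summed to 1554 and 1738 RPM against 115 to 466 RPM, the 8 dendritic cell markers to 496 and 493 RPM against 76.0 to 107 RPM, and the 6 erythroid markers to 1764 and 1738 RPM against 112 to 406 RPM. The 10 T cell markers summed to 10694 and 9288 RPM in RT2 and RT3 against 4594 to 6055 RPM in the other 5 libraries. The 5 NK cell markers summed to 187 and 81.2 RPM in RT2 and RT3 against 14.0 to 65.1 RPM in the others. Siglech, Xcr1 and Cd209a, all dendritic cell markers, were at 0 in every RT library. The 8 dendritic cell markers together were not lower in RT1, at 107 RPM against 105 and 76.0 RPM in WT1 and WT2. The myeloid markers, 9 of them in the table, reached 3153 RPM in RT1 against 986 and 660 RPM in WT1 and WT2. Among the shallow libraries they reached 1478 and 1403 RPM in the wild-type pair, and 322 and 478 RPM in RT2 and RT3. Myeloid RNA was thus highest in RT among the deep libraries and lowest in RT among the shallow ones. In bulk RNA a change in the mix of cells and a change in RNA per cell cannot be told apart.

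**Figure D1:**
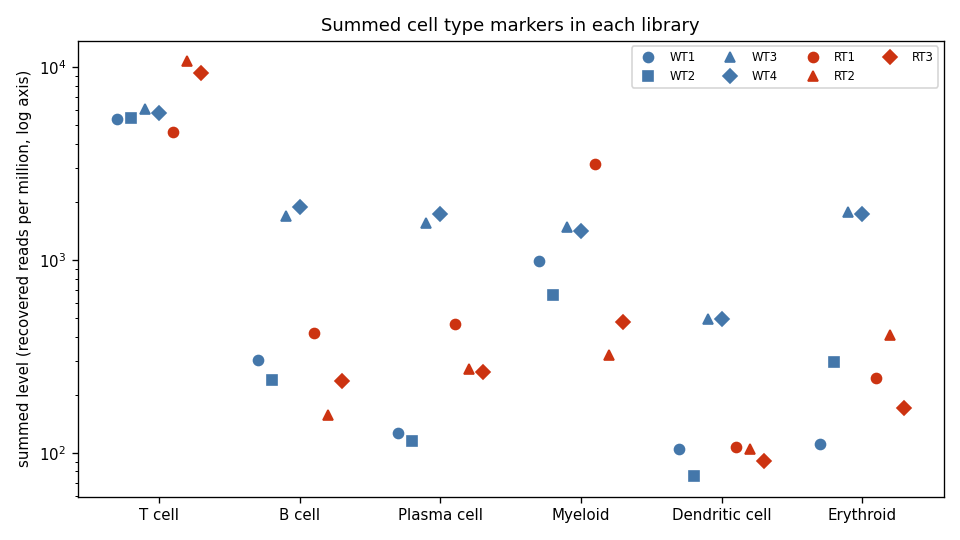
Summed level of the markers of 6 cell types in each library, in RPM on a log axis, with WT in blue and RT in red. B cell, plasma cell, dendritic cell and erythroid markers are highest in WT3 and WT4, and myeloid markers in RT1.

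Early response genes are known to be induced through short elements near their starts. RefSeq promoter windows on GRCm38.p6 were searched for 6 of the 10 genes, in the 250 bases before each start and on both strands. Egr1, Egr3, Cd69 and Myc were not searched, and any window on the chromosome of Egr1 was left out by rule. Searched were the cyclic AMP response element half-site CGTCA, the full element TGACGTCA, the CArG box bound by serum response factor, the EGR site GCGNGGGCG and the NR4A monomer site AAAGGTCA. A half-site also lies inside every full element. The 3 NR4A windows each held 4 half-sites, where 17.8% of 32851 windows hold at least 1 and 0.688% hold at least 3. The sequences below are shown because the NR4A genes share these half-sites while Egr2 and Dusp5, which differed in opposite directions between the genotypes, both hold CArG boxes. Capitals mark half-sites and CArG boxes, and each sequence stops before the first annotated exon, which in Nr4a3 removes the last of its 4 half-sites.
Nr4a1, chr15:101266596-101266845, plus strand: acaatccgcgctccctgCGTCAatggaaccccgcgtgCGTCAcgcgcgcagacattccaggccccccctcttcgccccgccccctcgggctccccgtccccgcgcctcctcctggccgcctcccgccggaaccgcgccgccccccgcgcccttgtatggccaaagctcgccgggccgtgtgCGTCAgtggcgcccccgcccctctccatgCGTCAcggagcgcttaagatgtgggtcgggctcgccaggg
Nr4a2, chr2:57124004-57124253, minus strand: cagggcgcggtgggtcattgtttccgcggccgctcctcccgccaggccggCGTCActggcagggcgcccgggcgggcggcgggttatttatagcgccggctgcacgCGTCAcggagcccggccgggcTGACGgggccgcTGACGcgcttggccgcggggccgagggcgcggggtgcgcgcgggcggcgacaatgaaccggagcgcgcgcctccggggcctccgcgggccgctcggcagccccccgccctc
Nr4a3, chr4:48045055-48045152, plus strand: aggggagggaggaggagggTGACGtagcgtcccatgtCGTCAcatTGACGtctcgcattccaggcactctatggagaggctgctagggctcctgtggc
Egr2, chr10:67537619-67537868, plus strand: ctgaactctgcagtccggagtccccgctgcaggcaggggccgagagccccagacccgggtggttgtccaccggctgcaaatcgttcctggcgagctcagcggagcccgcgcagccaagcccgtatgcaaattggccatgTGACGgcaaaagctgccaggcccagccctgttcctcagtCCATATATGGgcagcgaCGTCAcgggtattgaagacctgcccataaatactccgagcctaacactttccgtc
Dusp5, chr19:53528895-53529108, plus strand: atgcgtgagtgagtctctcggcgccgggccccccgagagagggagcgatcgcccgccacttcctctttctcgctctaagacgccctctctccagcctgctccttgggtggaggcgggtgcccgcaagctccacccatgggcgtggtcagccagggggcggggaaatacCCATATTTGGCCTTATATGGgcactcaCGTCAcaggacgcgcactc

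A CArG box was found in 1.47% of all windows and 2 of them in 0.0183%, and Dusp5 had 2. In Egr2, which has 5 annotated starts, the window shown had 1 CArG box at 72 to 63 bases before the start and 2 half-sites. An EGR site was present in the windows of Nr4a1, Nr4a2 and Dusp2, against 4.7% of all windows. Dusp2 had neither a half-site nor a CArG box in its window. None of the members' windows that were searched held the NR4A monomer site, found in 1.34% of windows. These matches describe letters in the windows only.

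Set side by side, RT and wild-type CD4+ cells differed in some of these activation genes in the recovered reads only. The RPKM test, planned as the main one, called 0 members, and the recovered reads are a second reading of the same libraries. In the recovered reads Nr4a3, Egr2 and Cd69 rose in RT by about 2-fold, Myc and Dusp5 fell, and Nr4a1, Egr1 and Dusp2 did not pass the test. The recovered reads are the whole reads behind the RPKM values, tested with limma voom with a term for deep against shallow. The 5870 genes tested had a sum of at least 10 reads in the shallow libraries. Nr4a2 and Egr3 had fewer and were not tested there, which left 8 members. Of all genes tested, 9.45% were called higher and 8.13% lower, against 3 and 2 of the 8 members. Of those 5, Nr4a3, Egr2 and Myc reached 10 shallow reads only through the genotype in which they were higher (4 and 22, 8 and 12, and 15 and 9 reads in wild type and RT), so these counts are a description and no support for a difference. In the RPKM values themselves, tested with limma on log2(RPKM + 1) with the same term, 0 members were called, and Nr4a3, Cd69 and Myc had an unadjusted p under 0.05. That test called 0.219% of 9605 genes higher and 0.0521% lower, and over all genes it called at most 1 when any single library other than RT1 was left out. Without RT1 the RPKM test called 168 genes higher and 278 lower, with 0 members among them. The deep libraries alone, in which RT1 is the only RT sample and is assumed to vary like WT1 and WT2, gave 0 member calls (limma voom), with 4.22% of genes called higher and 2.27% lower. The shallow libraries alone called 3.44% of genes higher and 4.74% lower, with Egr1 the only member, which was lower. In the limma voom test without RT1, the only deep RT library, 0 genes of 5870 were called in either direction. The recovered-read calls over all libraries given here and below were therefore all lost without RT1, which is not repeated at each gene. The Egr1 call is from the shallow libraries alone, a separate fit that holds neither RT1 nor the deep wild-type libraries.

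**Figure D2:**
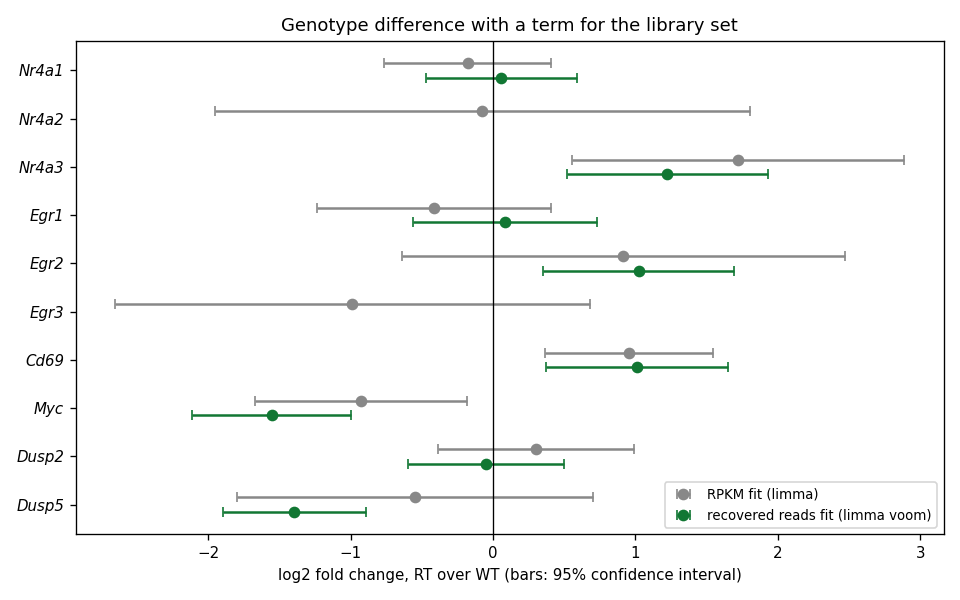
Log2 fold change of RT over WT for the 10 genes with 95% confidence intervals, from the RPKM values (grey) and the recovered reads (green, 8 genes). In the recovered reads the intervals of Nr4a3, Egr2 and Cd69 lie above 0, those of Myc and Dusp5 below 0, and those of Nr4a1, Egr1 and Dusp2 span 0.

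Among the NR4A receptors, Nr4a3 (chromosome 4, 48045153 to 48086447, mm10) was called higher in the recovered reads. It stood at 3.73, 2.10, 4.21 and 1.37 RPKM across WT1 to WT4 and at 6.38, 12.6 and 19.2 RPKM across RT1 to RT3. Within each set every RT library lay above every wild-type library, as 12.3% of the tested genes did. The means were 2.86 ± 1.34 RPKM (SD, n = 4) and 12.7 ± 6.42 RPKM (SD, n = 3). Group means here and below pool deep and shallow libraries, which are unevenly split between the genotypes, so they do not give the genotype difference alone. Relative to the wild-type mean of the same set, RT stood at 2.19 times (deep) and 5.70 times (shallow). Behind the deep levels were 415 and 252 wild-type reads and 833 RT1 reads. Behind the shallow ones were only 3 and 1 wild-type reads, with 8 in RT2 and 14 in RT3. Its 4 shallow wild-type reads alone would not have passed the filter. Nr4a3 rose by 1.22 ± 0.31 in the recovered reads (log2, SE; limma voom adjusted p = 0.0289). In the RPKM values the log2 fold change was 1.72 ± 0.50 (limma adjusted p = 0.209). Left out in turn, WT3, WT4 and RT3 each ended the call, with limma voom adjusted p-values of 0.0608, 0.06 and 0.0669, and without WT2 the value was 0.78, still called.

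Nr4a1 (chromosome 15, 101254269 to 101274795), the family member most often used as a reporter of antigen receptor signalling, was the most abundant of the 3. Its direction was opposite in the 2 library sets, and neither set alone called it. It stood at 24.6 and 18.4 RPKM in WT1 and WT2 and at 26.4 RPKM in RT1. In the shallow libraries it stood at 151 and 108 RPKM in WT3 and WT4 and at 88.9 and 91.4 RPKM in RT2 and RT3. RT1 thus lay just above both deep wild-type libraries, as 38.1% of genes did, and RT2 and RT3 below both shallow ones, as 27.5% did. The steps of the values fit a gene length of 2474 bases in deep and 3509 bases in shallow libraries, so levels cannot be compared between the sets for this gene. The log2 fold change was 0.06 ± 0.23 in the recovered reads (limma voom adjusted p = 0.887), with a 95% interval from -0.47 to 0.59. The difference between the sets was -0.83 ± 0.52 (log2, SE, limma voom interaction) and was not called. In the recovered reads RT1 stood at 130 RPM, against 128 and 88.4 RPM in WT1 and WT2. The shallow direction is that of WT3 and WT4, the libraries with 1688 and 1877 RPM of B cell markers, and the part of other cells in it was not tested.

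Nr4a2 (chromosome 2, 57106830 to 57124003) was the least abundant member in the deep libraries. It stood at 0.663, 0.381, 6.21 and 2.03 RPKM across WT1 to WT4 and at 2.10, 0 and 6.08 RPKM across RT1 to RT3. RT1, with 186 reads, lay 4.02 times above the mean of WT1 and WT2, which had 50 and 31 reads. The shallow libraries held 3, 1, 0 and 3 reads and did not separate, and the 0 in RT2 allows a level of up to 6.99 RPKM, counting 3 reads as the limit and counting error only. In the RPKM values the log2 fold change was -0.07 ± 0.80 (limma adjusted p = 0.980).

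**Figure D3:**
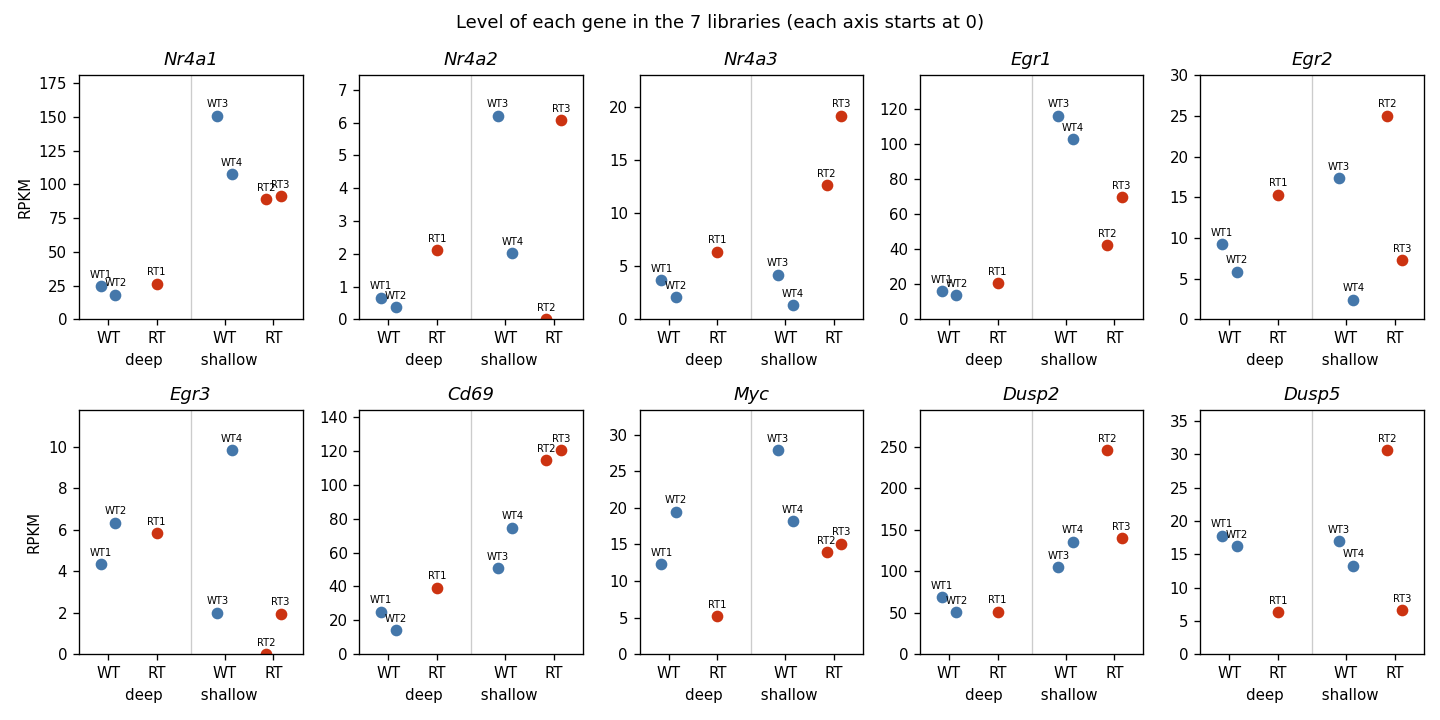
RPKM of the 10 genes in each library, split into deep (left) and shallow (right) libraries, with WT in blue and RT in red and each axis starting at 0. Nr4a3 and Cd69 lie above and Myc below wild type in both sets, while Nr4a1 and Egr1 lie above it in the deep and below it in the shallow libraries.

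Of the EGR factors, Egr2 was called higher, Egr1 was not called over all libraries and Egr3 was not tested in the recovered reads. Egr2 (chromosome 10, 67535475 to 67542188) rose by 1.02 ± 0.29 in the recovered reads (log2, SE; limma voom adjusted p = 0.0455). It stood at 9.27, 5.89, 17.3 and 2.42 RPKM across WT1 to WT4 and at 15.3, 25.0 and 7.26 RPKM across RT1 to RT3. RT1, at 1134 reads against 585 and 401, lay above both deep wild-type libraries. In the shallow libraries, with 7, 1, 9 and 3 reads, RT3 lay between WT3 and WT4, so the groups overlapped. The means were 8.73 ± 6.38 RPKM (SD, n = 4) and 15.9 ± 8.91 RPKM (SD, n = 3), and the RPKM test gave 0.92 ± 0.66 (limma adjusted p = 0.590). The call was lost when any 1 library other than WT1 was left out, with limma voom adjusted p-values of 0.0524 to 0.0903 for WT2, WT3, WT4, RT2 and RT3. Without WT2 its log2 fold change was 0.65.

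Egr1 (chromosome 18, 34859823 to 34864984) showed the same opposite pattern as Nr4a1. It stood at 16.2 and 13.7 RPKM in WT1 and WT2 and at 20.8 RPKM in RT1. In the shallow libraries it stood at 116 and 103 RPKM in WT3 and WT4 and at 42.2 and 69.7 RPKM in RT2 and RT3. Over all libraries the log2 fold change was 0.09 ± 0.28 (limma voom adjusted p = 0.867). In the shallow libraries alone Egr1 fell by 1.02 ± 0.31 (log2, SE; limma voom adjusted p = 0.0223), where 4.74% of 5870 genes were called lower. The variance behind that p-value comes mostly from other genes, so it does not measure the spread of Egr1 between these mice. In the shallow RPKM values Egr1 was at -0.997 ± 0.311 (limma adjusted p = 0.314) and not called. In the deep libraries alone Egr1 was at 0.47 ± 0.24 in the recovered reads. The difference between the sets was -1.48 ± 0.48 (limma voom interaction, adjusted p = 0.341), so it did not pass over all genes. That test of the difference called 0.954% of genes. The shallow comparison rests on 62 and 56 reads in WT3 and WT4 against 20 and 38 in RT2 and RT3, and the B cell, plasma cell, dendritic cell and erythroid markers given above were higher in the same pair of wild-type libraries. Their part in it was not tested.

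Egr3 (chromosome 14, 70077203 to 70082614) could hardly be measured in the shallow libraries. The shortest length that gave whole reads was 236 bases in the deep libraries and 4185 bases in the shallow ones. Multiples of a length also give whole reads, so the deep length is not settled. At these lengths there were 19 and 30 deep wild-type reads, 30 RT1 reads and 5 or fewer in each shallow library. The deep counts are the least that fit. Egr3 stood at 4.34, 6.35, 2.01 and 9.82 RPKM across WT1 to WT4 and at 5.83, 0 and 1.96 RPKM across RT1 to RT3, and the groups overlapped. The log2 fold change in the RPKM values was -0.99 ± 0.71 (limma adjusted p = 0.587), and the 0 in RT2 allows up to 6.78 RPKM.

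Cd69 (chromosome 6, 129267325 to 129275436) was higher in RT in both library sets. It stood at 25.1 and 14.3 RPKM in WT1 and WT2 against 39.3 RPKM in RT1, and at 50.9 and 74.7 RPKM in WT3 and WT4 against 114 and 120 RPKM in RT2 and RT3. The groups did not overlap within either set, and the ratio of RT to wild type was 1.99 (deep) and 1.87 (shallow). The means over all libraries, which mix the deep and shallow levels, were 41.3 ± 27.1 RPKM (SD, n = 4) and 91.3 ± 45.2 RPKM (SD, n = 3). Cd69 rose by 1.01 ± 0.28 in the recovered reads (log2, SE; limma voom adjusted p = 0.0413), and the RPKM test gave 0.95 ± 0.25 (limma adjusted p = 0.180). The call was lost without WT3, WT4, RT2 or RT3, at limma voom adjusted p-values of 0.0708 to 0.0877, and without WT2 the value was 0.61, still called. Of the 5870 genes tested, 12.3% had RT above wild type without overlap in both sets, and Nr4a3 and Cd69 were the 2 members that did. Among the shallow libraries the T cell markers summed to 10694 and 9288 RPM in RT2 and RT3 against 6055 and 5790 RPM in WT3 and WT4, and in RT1 the myeloid markers summed to 3153 RPM. The part of either in the Cd69 and Nr4a3 differences was not tested.

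Myc (chromosome 15, 61985391 to 61990374) was lower in RT. It stood at 12.3, 19.5, 27.8 and 18.2 RPKM across WT1 to WT4 and at 5.18, 13.9 and 15.1 RPKM across RT1 to RT3. Within each set every RT library lay below every wild-type library, as 12.7% of the tested genes did, and Myc was the only member to do so. The means were 19.5 ± 6.40 RPKM (SD, n = 4) and 11.4 ± 5.43 RPKM (SD, n = 3). In the recovered reads Myc fell by 1.55 ± 0.24 (log2, SE; limma voom adjusted p = 0.00452). The deep libraries held 622 and 1061 reads in wild type and 307 in RT1, and the shallow ones 9, 6, 4 and 5. The RPKM test gave -0.93 ± 0.32 (limma adjusted p = 0.284). Without RT1 the value was -0.61. Myc kept its limma voom call when any other single library was left out. With WT3 and WT4 both left out the value was -1.61, which compares RT1 alone with WT1 and WT2.

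**Figure D4:**
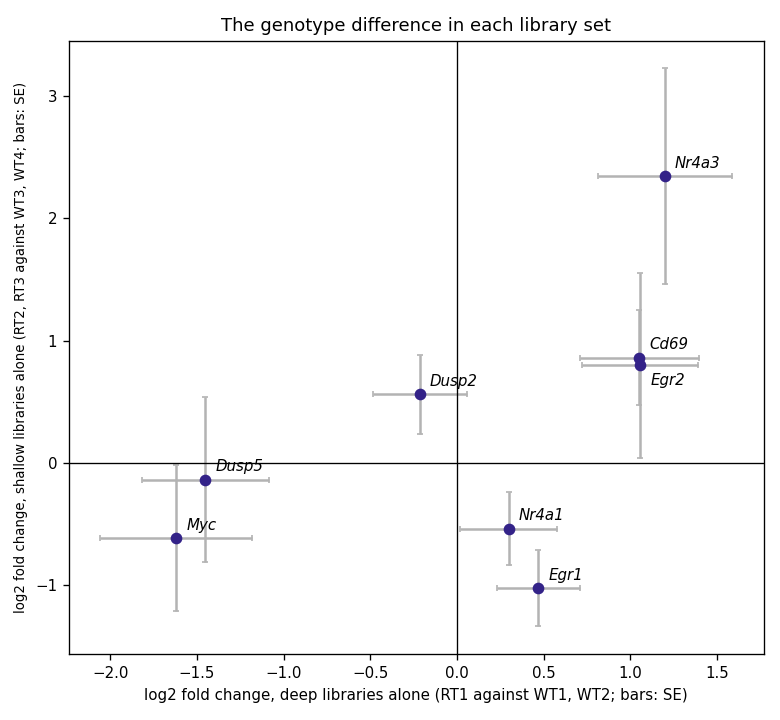
Log2 fold change of RT over WT (bars, SE) in the deep libraries alone against that in the shallow libraries alone for the 8 genes tested in the recovered reads. Nr4a3, Egr2 and Cd69 lie above 0 in both, Myc and Dusp5 below 0 in both, and Nr4a1, Egr1 and Dusp2 have opposite signs. The shallow value of Dusp5, at -0.14 ± 0.67 (SE), is well within its error of 0.

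Of the phosphatases, Dusp5 was called lower and Dusp2 was not called. Dusp5 (chromosome 19, 53529109 to 53542431) fell by 1.39 ± 0.22 in the recovered reads (log2, SE; limma voom adjusted p = 0.00465). It stood at 17.8, 16.2, 17.0 and 13.3 RPKM across WT1 to WT4, with a mean of 16.1 ± 1.95 RPKM (SD, n = 4). In recovered reads these levels were less even, at 92.4, 77.7, 47.7 and 37.2 RPM, with only 5 and 4 reads in WT3 and WT4. The RT levels were 6.27, 30.6 and 6.65 RPKM across RT1 to RT3. RT1, like 37.6% of genes, lay below both deep wild-type libraries. RT3 lay below both shallow ones, and RT2, with 8 reads, above both. The RPKM test gave -0.55 ± 0.53 (limma adjusted p = 0.678). In deep libraries 338 RT1 reads stood against 816 and 801, and without RT1 the value was -0.11.

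Dusp2 (chromosome 2, 127336159 to 127338376), the member with the highest RPKM in each of the deep libraries, did not differ beyond its spread. It stood at 68.5, 50.5, 105 and 135 RPKM across WT1 to WT4 and at 51.5, 245 and 140 RPKM across RT1 to RT3. RT1 lay between the deep wild-type libraries, while RT2 and RT3 lay above both shallow ones, as 23.7% of genes did. The log2 fold change in the recovered reads was -0.05 ± 0.24 (limma voom adjusted p = 0.909), with a 95% interval from -0.59 to 0.49.

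In the deep wild-type libraries, where RPKM can be compared between genes, Dusp2 was highest at 68.5 and 50.5 RPKM. Below it Cd69, Nr4a1, Dusp5, Egr1 and Myc lay between 12.3 and 25.1 RPKM, and the ranges of Cd69 and of Myc each overlapped those of the other 4. Egr2 stood at 9.27 and 5.89 RPKM, Nr4a3 at 3.73 and 2.10 RPKM and Nr4a2 at 0.663 and 0.381 RPKM, each below the range of the one before. Egr3 is left out of this order because the length behind its deep values is not settled.

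By correlation of log2(RPKM + 1) with the mean profile of the 8 members, after removing the mean of each library set, the most similar of 5846 other genes over the 7 libraries were Arl4a (r = 0.949), Chsy1 (0.941), Fbxo6 (0.929), Stxbp2 (0.924) and Efhd2 (0.923). None was called in the recovered reads. The profile leans on Egr2, whose own correlation with it was 0.896, while Egr1 and Myc were at -0.23 and -0.22. The points share library depth, and few reads lie behind the shallow ones.

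Most tested genes of the signalling steps that feed these genes were called in neither direction. Of 21 genes of the RAS, ERK and serum response factor list, 17 were tested in the recovered reads, of which 3 rose, 4 fell and 10 passed in neither direction. For this list and those below, the shares over all genes were 9.45% higher and 8.13% lower. The median log2 fold change was 0.12, against -0.03 over all genes. With genotype as the only term, 1 of the 17 rose and 1 fell. Rasgrp1, the activator that links the T cell receptor to RAS, fell by 2.06 ± 0.20 (log2, SE; limma voom adjusted p = 0.000621), from 33.7 to 52.9 RPKM in wild type to 9.36, 11.8 and 19.1 RPKM across RT1 to RT3, without overlap. Of 13 calcineurin and NFAT genes 10 were tested, 0 rose and 2 fell, with a median of -0.03. Ppp3ca, the calcineurin catalytic subunit, fell by 0.97 ± 0.23 and Rcan3, of a family of calcineurin regulators, by 0.89 ± 0.19. Ppp3ca, with 12 shallow wild-type and 3 RT reads, passed the filter only through wild type and was uncalled without RT3 (limma voom adjusted p = 0.0556).

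Among other ERK phosphatases and Sprouty-type inhibitors, Dusp4, Dusp6 and Spry1 were called higher. Of 18 listed genes 5 were tested, 4 of which rose and 1 fell (median 1.28 on the log2 scale). Dusp4 rose by 2.32 ± 0.34 (limma voom adjusted p = 0.00357) and stood at 3.00 to 7.35 RPKM in wild type and at 25.7, 17.3 and 18.0 RPKM across RT1 to RT3. Dusp6, a cytoplasmic ERK phosphatase, rose by 1.16 ± 0.16 and Spry1, an inhibitor of RAS signalling, by 1.45 ± 0.22. Dusp4, with 2 shallow wild-type and 11 shallow RT reads, and Spry1, with 8 and 12, passed the filter only through RT. The shallow libraries taken alone called 0 of the 5 (limma voom), and a filter of 10 reads over all libraries kept all 18, of which 8 rose and 2 fell.

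Of the 5 other EGR family members and partners only the corepressor genes Nab1 and Nab2 were tested, and they moved in opposite directions. Nab1 rose by 1.004 ± 0.22 (limma voom adjusted p = 0.0165) and Nab2 fell by 0.80 ± 0.20 (adjusted p = 0.0289). Nab2 was uncalled without WT4 or RT3 (limma voom adjusted p = 0.0606 and 0.0569). Of 15 genes of anergy and restraint linked to EGR2 and EGR3, 11 were tested, 2 rose and 1 fell, with a median of 0.06. Dgka, a lipid kinase that dampens RAS activation, fell by 0.96 ± 0.13. Socs1, an inhibitor of cytokine signalling, rose by 0.78 ± 0.18. Socs1, with 5 shallow wild-type and 19 RT reads, passed the filter only through RT and was uncalled without WT4 or RT3 (limma voom adjusted p = 0.0526 and 0.0576).

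Genes around CD69 and lymphocyte retention were mostly lower. Of 8 tested, 1 rose and 5 fell, with a median log2 fold change of -1.35 over all libraries, -1.50 in the deep and -0.27 in the shallow ones. S1pr1, the receptor that CD69 binds, fell by 2.44 ± 0.22 (limma voom adjusted p = 0.000499). It stood at 62.6, 96.4, 119 and 121 RPKM across WT1 to WT4 and at 14.2, 21.7 and 37.8 RPKM across RT1 to RT3, and was called in the RPKM test too (limma adjusted p = 0.0451). Ccr7, a lymph node homing receptor, fell by 3.45 ± 0.33.

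Of 11 listed MYC partners and antagonists 6 were tested and 0 passed in either direction (limma voom). Mlx came nearest at -0.79 ± 0.27 (limma voom adjusted p = 0.0858), and without WT1 it was called at -1.09 and without WT2 uncalled at -0.45. Of 18 MYC-linked growth genes 17 were tested, 1 rose and 2 fell while 14 passed in neither direction, and the median was -0.26. Odc1, ornithine decarboxylase and a textbook MYC target, rose by 1.60 ± 0.16 (limma voom adjusted p = 0.000621) and in the RPKM test as well (1.65, limma adjusted p = 0.0351). It stood at 17.2 to 70.0 RPKM in wild type and at 58.2, 239 and 208 RPKM across RT1 to RT3. The nucleolar protein genes Nop58 and Nop56 fell by 0.997 ± 0.18 and 0.66 ± 0.14.

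Other genes induced by the T cell receptor included Pdcd1 and Batf, which rose, and Il2ra, which fell. Of 24 listed, 23 were tested, 9 rose and 2 fell (median 0.56 on the log2 scale). Pdcd1, which encodes the receptor PD-1, rose by 2.66 ± 0.37 and Batf, an AP-1 family factor, by 1.94 ± 0.23, and both were also called in the RPKM test (limma adjusted p = 0.0451 and 0.0351). Il2ra, the high-affinity interleukin 2 receptor chain, fell by 1.84 ± 0.22, with a deep value of -1.93 and a shallow value of 0.10. The 10 follicular helper markers, in which 9 rose and 0 fell with a median of 1.696, include Bcl6 at 1.998 ± 0.19, Ascl2 at 4.00 ± 0.46 and Tox2 at 2.52 ± 0.29. Ascl2 had 0 shallow wild-type and 10 shallow RT reads and passed the filter only through RT.

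Immediate early and heat shock genes also respond to the handling of cells. Of 25 listed 20 were tested, 3 rose and 0 fell (median 0.24 on the log2 scale). The AP-1 gene Fosl2 rose by 1.14 ± 0.22, the NF-kB regulator gene Nfkbiz by 0.56 ± 0.16 and the chaperone gene Hspa1a by 2.58 ± 0.46 (limma voom adjusted p = 0.0076). Hspa1a and Fosl2, with 8 and 2 shallow wild-type reads against 217 and 10 in RT, passed the filter only through RT. Hspa1a has a near-identical neighbour, so its own share of the reads of both genes is uncertain. Nfkbiz was uncalled without WT3, WT4 or RT3 (limma voom adjusted p = 0.0681 to 0.0954). In the shallow libraries alone 6 of the list rose and 2 fell, Egr1 not being part of it. The part of handling in the members' differences was not tested.

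**Figure D5:**
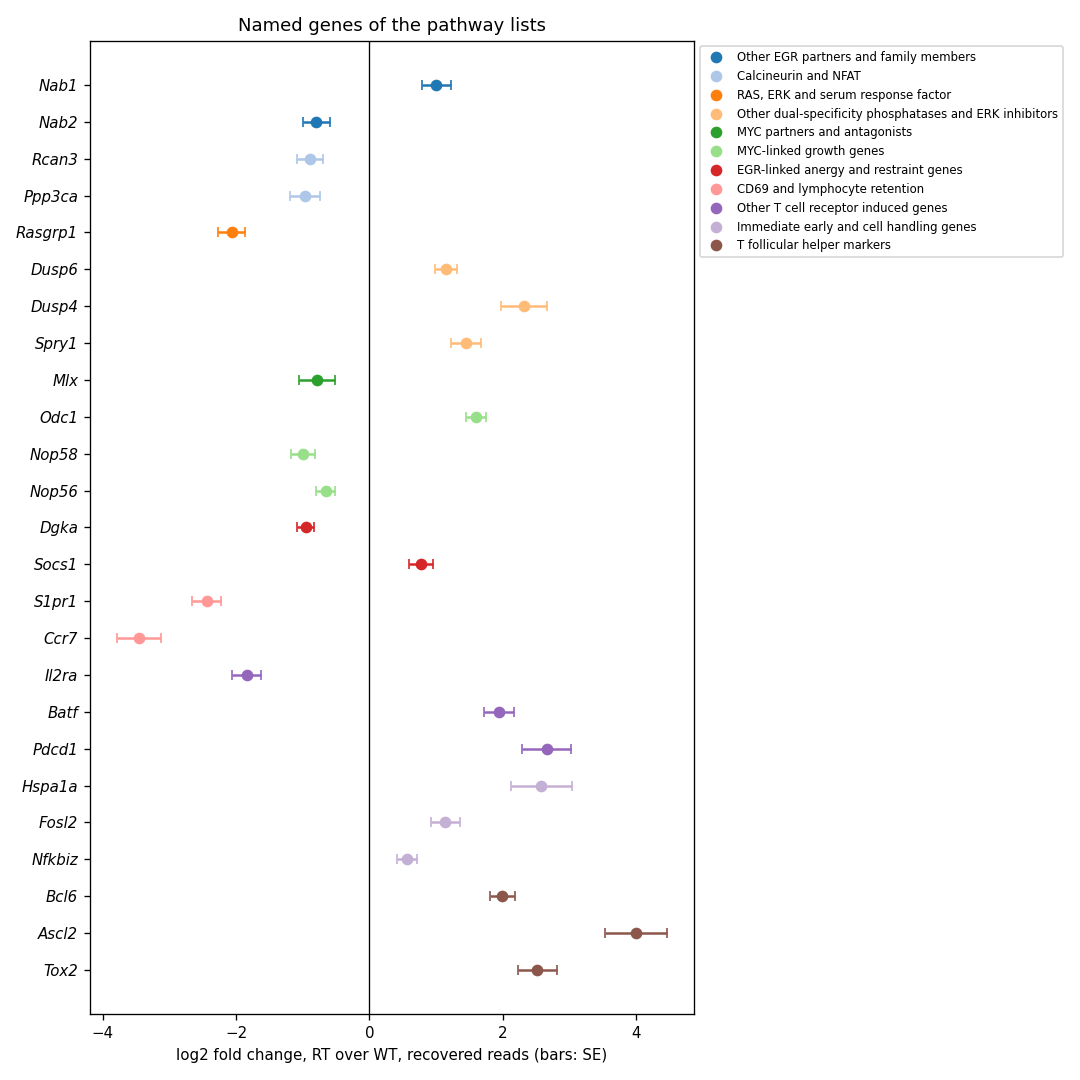
Log2 fold change of RT over WT in the recovered reads (points, with SE as bars) for the genes named in the text from the 11 pathway lists, coloured by list. The ERK inhibitors Dusp4, Dusp6 and Spry1 lie above 0, and Rasgrp1, S1pr1 and Ccr7 below it.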

How the data were processed

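CD4+ splenocytes were sorted by flow cytometry and libraries made from total RNA, per the labels' protocols. The authors deposited RPKM values for 7 libraries. The submitters' processing notes name the mm10 build. Aligner, counter and annotation: not given in the sources used here. Whole reads were recovered as RPKM times length times library total, with GENCODE M21 exon lengths (mm10) for 10307 genes, another single length for 2661 and a length for each library set for 889, within 0.0001 reads. In the low values (under 100 reads) 78.9% to 83.9% were whole with the annotated length, within 0.01 reads. Recovered reads made up 47.6% to 51.5% of deep and 88.2% to 91.2% of shallow totals. The count of genes called in them was 555 higher and 477 lower.

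Genes at 1 RPKM or more in 3 libraries were fitted as log2(RPKM + 1) with limma 3.58.1 in R 4.3.3 (trended prior variance). That scale understates the change of low genes. Recovered reads were fitted with limma voom. Both fits had terms for genotype and library set, two-sided p-values and Benjamini-Hochberg adjustment over all genes tested, with a threshold of 0.05. The scripts were tested on simulated data. The labels do not say whether the mice were littermates or handled together, so p-values measure at most the spread between these samples. Both fits also draw the variance of each gene toward a value shared over genes.

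The members, the gene lists and the library set term were chosen with earlier results of these data known. Named are all members, Tet2, Rhoa, the 3 genes with the smallest p among those called in each list (or the nearest 1), and the 5 genes most like the members' mean profile. Some genes that this rule selects are not reported here. Alternatives and an interaction of genotype and library set are given in the closing section and beside the results. WT3 and WT4 differed by little more than sampling noise (chi-square per degree of freedom 1.15 over 2350 genes, p = 4.47e-07), against 2.97 for RT2 and RT3 at like depth and 33.9 for WT1 and WT2. They were kept as 2 samples, and counted as 1 in an alternative, which ended the 3 higher member calls.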

Additional observations from a re-analysis of the deposited data

Results flagged for a closer look

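Among the 4 wild-type libraries, 2 of the 49 levels examined held a library far from the rest, as Dixon's gap test measures it, and chance alone gives about 1 in 20 such groups. Nab2 stood at 8.39 RPKM in WT4 and at 16.9 to 18.5 RPKM in the others (gap over range 0.843). Dusp4 stood at 7.35 RPKM in WT1 and at 3.00 to 3.50 RPKM in the others (gap over range 0.886). All RT libraries lay above WT1 in Dusp4.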

How the results depend on the processing

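In the RPKM values 0 members were called under every alternative run, while 21 genes were called higher and 5 lower over all genes. These counts became 4 and 1 with genotype as the only term, 4 and 0 with a pseudocount of 0.1 RPKM, 29 and 9 at 5 RPKM or more, 5 and 38 in the shallow libraries, and 0 and 0 without a filter, in the deep libraries, with WT3 and WT4 averaged, with the replicate block, or with both left out (chosen after seeing the data). Leaving out 1 library gave 0 to 168 higher and 0 to 278 lower, the highest without RT1. In the recovered reads the 555 higher and 477 lower became 307 and 208 with genotype as the only term, 248 and 133 (deep only), 202 and 278 (shallow only), 349 and 220 without WT3 and WT4 and 676 and 744 with quantile normalisation, and 0 to 762 and 0 to 685 with 1 library left out. The members called higher went from 3 to 1 with the filter over all libraries, 1 with the replicate block (Nr4a3), and 0 with WT3 and WT4 summed, with both left out, with genotype alone, and in either set alone; with 1 library left out they were 0 to 3. The members called lower went from 2 to 0 (deep only), 1 (shallow only, Egr1) and 0 to 2 with 1 library left out. The cause of these shifts was not tested. With WT3 and WT4 both left out, the genotype term compares RT1 alone with WT1 and WT2.

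In the recovered reads, directions turned only for members not called over all libraries. The RPKM test called 0 members, so it cannot show this. Egr2, called in the recovered reads, turned in the RPKM values with the replicate block. In the RPKM values Nr4a2 was at 0.13 after rescaling and 0.044 with WT3 and WT4 averaged, and with genotype alone Nr4a1 was at 0.19 and Nr4a2 at 0.073. The deep libraries alone, or WT3 and WT4 both left out, gave Nr4a1 at 0.30, Nr4a2 at 1.03, Egr1 at 0.46, Egr3 at 0.13 and Dusp2 at -0.19. With the replicate block in the RPKM fit Nr4a2 was at 0.44, Egr2 at -0.24 and Egr3 at 0.17, and with the block in the recovered reads Nr4a1 was at -0.18. In the recovered reads Dusp2 was at 0.17 with genotype alone, and the shallow libraries gave Nr4a1 at -0.54, Egr1 at -1.02 and Dusp2 at 0.56. With 1 library left out, Nr4a1 ran from -0.50 to 0.021 and Nr4a2 from -0.81 to 0.82 in RPKM, and Nr4a1 from -0.54 to 0.17, Egr1 from -1.02 to 0.27 and Dusp2 from -0.27 to 0.56 in the recovered reads. Whether replicate numbers pair the samples cannot be told. The deviations of same-numbered libraries from their group means correlated at 0.43, -0.18 and 0.18. The difference between deep and shallow libraries was not removed from these deviations, so they do not settle it. Shallow depth leaves Nr4a2, Egr3 and the shallow values of Nr4a3, Egr2, Myc and Dusp5 resting on a few reads each.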
